A study of Mus musculus with 18 samples.

Results

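The adipogenic regulators Pparg, Cebpa, Cebpb, Cebpd and Zfp423 and the fat cell genes Fabp4, Lpl, Adipoq, Plin1 and Cd36 were followed in cultured mouse mammary fibroblasts. The 10 genes were chosen by symbol, as transcription factors of fat cell formation and genes of the fat cell, and each matched 1 row of the 55486 genes in the count table. The choice was made with earlier results of these data known. The shares over all tested genes set beside their counts therefore describe the 10 genes and are no independent test. All 10 passed the filter on low counts and were among the 14273 genes tested. RNA was sequenced from normal fibroblasts (NFs) of FVB/n mice in 4 groups, all kept in their medium for 7 days. CD26- NFs and CD26+ NFs each received either control conditioned medium (n = 3 per cell type) or conditioned medium (CM) of tumour cells (n = 6 per cell type). The CM came from 6 mouse tumour cell lines, named 13-MCB-17, 10-SJK-221, 18-MCB-12, 13-MCB-44, 13-MCB-90 and 13-MCB-138, and each line supplied 1 CD26- and 1 CD26+ culture. The lines come from invasive lobular carcinomas of mice that lose Cdh1 in the mammary epithelium through Cre under the Wap promoter, among other engineered changes.

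The NFs were sorted from mammary glands of females aged 8 to 16 weeks, as cells without EpCAM, CD49f, CD45 and CD31. Between 4 and 6 mice were pooled for a sort, and the cells were passaged before use. No label says that libraries of a group came from separate sorts, so the tests measure the spread between these libraries, which may be technical. CD26 is the protein of Dpp4, whose mRNA had at most 2 counts in any control library of either cell type, so it gives no check of the labels in control medium. On the CPM scale, which divides counts by the TMM-scaled library size, it was at 0.0776 to 0.881 CPM in CD26- libraries and 0.715 to 7.80 CPM in CD26+ libraries given tumour CM.

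As background, an early wave of C/EBP factors (Cebpb and Cebpd) is known to switch on Pparg and Cebpa in a preadipocyte, and these factors then maintain each other and the genes of the fat cell. Zfp423 is a zinc finger protein that commits fibroblast-like cells to that lineage. In the mammary gland, fibroblasts and adipocyte progenitors lie side by side in the fat pad around the ducts, and CD26 is also known as a marker of early adipose progenitors.

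Total counts ran from 9725723 to 14585349 per library. Of 8 fibroblast markers, 7 were higher in CD26+ than in CD26- NFs in both media (edgeR, false discovery rate [FDR] under 0.05), and the sum over the list was 14899 to 16642 CPM in CD26- control, 8056 to 19798 in CD26- CM, 60193 to 77001 in CD26+ control and 27313 to 50319 in CD26+ CM libraries. Of 7 mammary epithelial markers, 6 were lower in CD26+ NFs in both media, with sums of 3951 to 4341, 2403 to 3941, 657 to 1163 and 584 to 1409 CPM in the same order of groups. The defining immune markers Ptprc and Adgre1 had at most 3 counts in any library, and their list of 6 summed to 24.4 to 54.8 CPM. The endothelial list summed to 0.971 to 8.61 CPM over all libraries, and the pericyte and smooth muscle list to 200.3 to 213.9 CPM in CD26- control libraries and 61.6 to 202 CPM in the others. These lists moved with cell type beside the 10 genes, and their part in the results was not tested, apart from a fit with the mean log2 CPM of the epithelial markers as a covariate. Its effect on the calls of the 10 genes is given with each comparison it changed. For the lists of further genes it is given with some of the comparisons. The epithelial sums of the cell types did not overlap, so that this covariate largely follows cell type, and a call lost with it does not show a smaller difference. In bulk RNA, fewer cells of a type and less RNA per cell cannot be told apart.

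The library of CD26+ NFs given CM of 13-MCB-138 (replicate 18) stood apart from its group. Its counts differed from those of the other CD26+ CM libraries by a chi-square per degree of freedom of 20.3 to 54.0, against 4.29 to 25.4 among those. Results that rest on this library, or on replicate 13 (CD26+ NFs, CM of 13-MCB-17), are given with and without it.

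**Figure D1:**
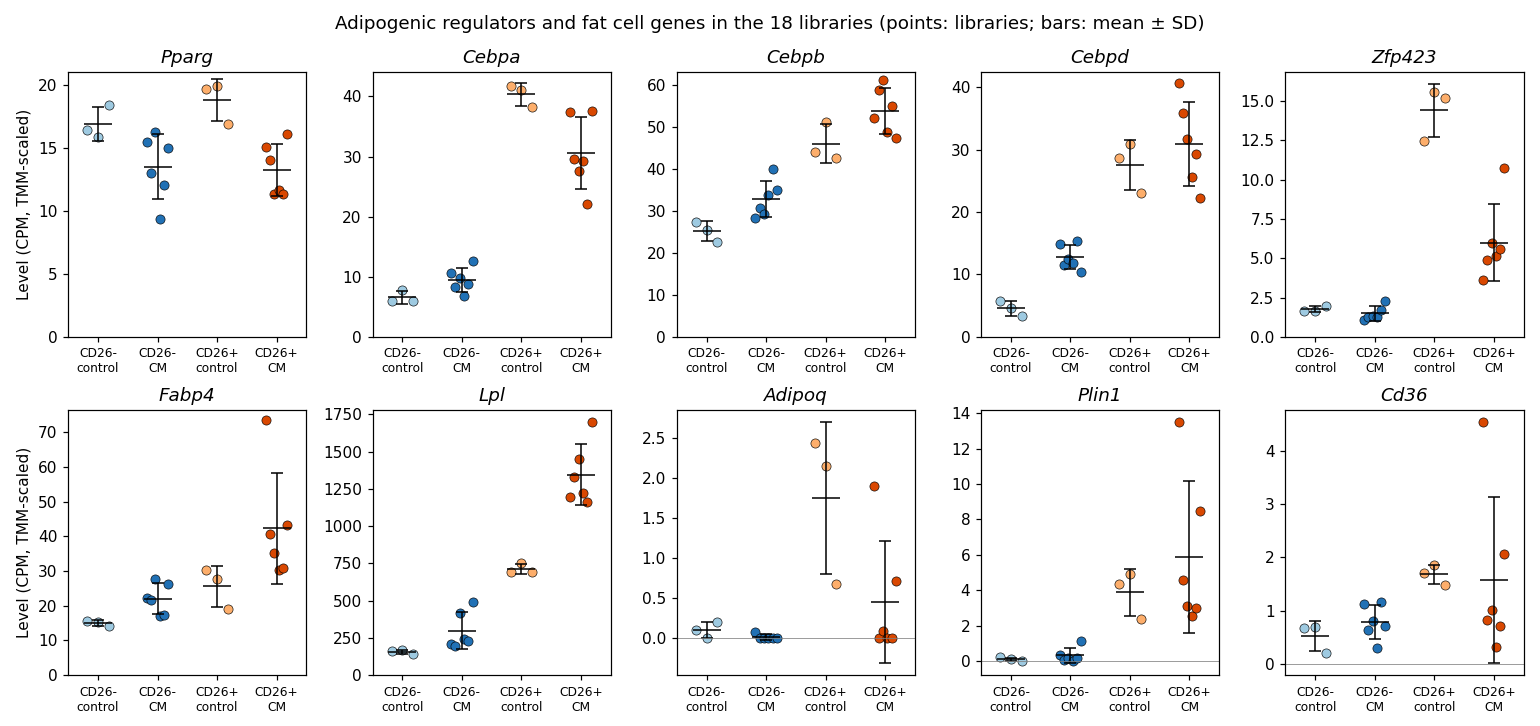
Level of each of the 10 genes (vertical axis, CPM on TMM-scaled library sizes, a linear scale for each gene) in the 18 libraries by group (horizontal axis), with a point for each library and bars for the mean ± SD of 3 control or 6 CM libraries. Cebpa, Cebpd, Zfp423, Lpl and Plin1 lie higher in all CD26+ than in all CD26- libraries of the same medium, and Pparg overlaps between the cell types.

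In control medium, the C/EBP factors and Zfp423 were higher in CD26+ NFs, and so were the fat cell genes Fabp4, Lpl, Adipoq and Plin1. In this comparison of the cell types, 8 of the 10 genes were higher in CD26+ NFs and 0 lower (edgeR quasi-likelihood test, FDR under 0.05), where 25.0% of all tested genes were higher and 25.4% lower. Pparg and Cd36 did not pass. In 9 of the 10 the control libraries of the cell types did not overlap, which was true of 64.7% of all tested genes, and 6 of the 10 also passed the log2 limit of 2 that the study set, against 5.97% of all. The median log2 fold change of the 10 genes was 2.40, against 0.01 over all tested genes. Adipoq and Plin1 passed the filter on low counts only through CD26+ libraries, so that their calls between the cell types, in both media, are partly set by the filter. Among the other 8 genes 6 were called, 4 passed the log2 limit, and the median was 1.96. With the epithelial covariate 4 of the 10 were called, Cebpa, Cebpd, Zfp423 and Lpl, while the other 4 missed the threshold with log2 fold changes of the same direction. These were 0.72 for Cebpb (edgeR FDR 0.0557, 0.88 without the covariate), 0.60 for Fabp4 (0.526, 0.77 without), 5.19 for Adipoq (0.165, 3.89 without) and 5.51 for Plin1 (0.0571, 5.40 without).

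Cebpa (chr7:35119293-35121928 on GRCm38), the factor that holds fat cells in their mature state, was at 5.91, 7.86 and 5.96 CPM in the CD26- control libraries and at 41.8, 41.1 and 38.2 CPM in the CD26+ control libraries. The groups lay far apart, with a log2 fold change of 2.62 ± 0.21 (SE) and an edgeR FDR of 4.25e-08. Cebpd (chr16:15887286-15891031), an early factor of the cascade, was at 5.71, 4.61 and 3.38 CPM in CD26- and at 28.7, 30.9 and 23.1 CPM in CD26+ control libraries. Its difference was of nearly the same size, 2.61 ± 0.23 (log2, SE), with an edgeR FDR of 1.22e-07. Cebpb (chr2:167688915-167690418), the other early factor, averaged 25.1 ± 2.37 CPM in CD26- and 46.0 ± 4.60 CPM in CD26+ control libraries (SD; 3 libraries each), a difference of 0.88 ± 0.13 (log2, SE).

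Zfp423 (chr8:87661810-87959595) was at 1.65, 1.62 and 1.96 CPM in CD26- and at 12.5, 15.6 and 15.2 CPM in CD26+ control libraries. It had the highest log2 fold change of the 5 regulators, 3.03 ± 0.32 (SE) and an edgeR FDR of 6.18e-07. Pparg (chr6:115360951-115490399), the nuclear receptor at the centre of fat cell formation, was at 16.5, 15.9 and 18.4 CPM in CD26- and at 19.7, 19.9 and 16.9 CPM in CD26+ control libraries. The Pparg values overlapped, and the log2 fold change was 0.15 ± 0.17 (SE) with an edgeR FDR of 0.479.

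Among the fat cell genes, Lpl (chr8:68880491-68907448), which encodes the lipase that frees fatty acids from circulating lipoproteins, was at 162, 167 and 142 CPM in CD26- and at 694, 749.7 and 694 CPM in CD26+ control libraries. The difference was 2.18 ± 0.28 (log2, SE), a 4.54-fold higher level, with an edgeR FDR of 6.37e-06. Plin1 (chr7:79720218-79732903), which coats the lipid droplets of fat cells, had 2, 1 and 0 counts in CD26- and 54, 66 and 32 counts in CD26+ control libraries. With so few counts on one side, the ratio of the scaled sums was 47.4, with an exact 95% interval of 15.9 to 232.5 that covers counting error only, and the edgeR FDR was 0.000697 in a gene that entered the test through its CD26+ libraries. Adipoq (chr16:23146536-23158028), the gene of the hormone adiponectin that is made almost solely by fat cells, had 1, 0 and 3 counts in CD26- and 30, 29 and 9 counts in CD26+ control libraries. Its ratio was 15.9, with an exact 95% interval of 5.94 to 60.1, its edgeR FDR was 0.0117, and DESeq2 gave 0.0515.

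Fabp4 (chr3:10204088-10208576), which carries fatty acids inside fat cells and macrophages, was at 15.7, 15.3 and 14.1 CPM in CD26- and at 30.2, 27.7 and 19.0 CPM in CD26+ control libraries. The difference of 0.77 ± 0.29 (log2, SE) passed at an edgeR FDR of 0.0344 and did not pass without any 1 of CD26- control replicates 1, 2 and 3 and CD26+ control replicates 10 and 11, at 0.64 to 0.81. Cd36 (chr5:17781690-17888801), a fatty acid transporter of the cell surface, was at 0.203 to 0.683 CPM in CD26- and 1.48 to 1.85 CPM in CD26+ control libraries. The ranges lay apart, and the edgeR FDR was 0.0691. It was called in a fit of the control libraries alone (edgeR FDR 0.00180) and without replicate 13 (0.0116) or 16 (0.0448).

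Levels of the mature fat cell genes were low in all groups. The 7 mature adipocyte markers, which include Adipoq and Plin1, summed to 1.45 to 1.94 CPM in CD26- control, 0.912 to 2.56 in CD26- CM, 4.23 to 8.90 in CD26+ control and 3.65 to 17.2 CPM in CD26+ CM libraries. Cidec, a droplet protein of fat cells, and Cfd, the adipokine adipsin, had 0 counts in all 9 CD26- libraries. In CD26+ control libraries Cidec had 10, 3 and 3 counts and Cfd had 6, 8 and 0 counts. Slc2a4, the insulin-responsive glucose transporter that muscle also expresses, ran the other way, with 17, 15 and 19 counts in CD26- and 4, 6 and 12 counts in CD26+ control libraries. It was lower in CD26+ NFs by edgeR (FDR 0.00663) and made up most of the CD26- control sums. Lep, the leptin gene, had at most 1 count in any library.

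Promoter sequence is given for those of the 10 genes that hold the letters of a C/EBP site, because Cebpa, Cebpb and Cebpd encode C/EBP factors. Whether a match bears on a difference between the cell types was not tested. RefSeq windows on GRCm38.p6 of 250 bases before to 50 bases after a start were found for 7 of the 10 genes, in 10 windows, with none for Cebpd, Fabp4 and Lpl. The motif TTNNGCAA was searched on both strands and occurs in 10.8% of 32851 windows. It was found in the windows of Plin1 (chr7:79732727-79733026, minus strand), the third start of Pparg (chr6:115421816-115422115, plus strand) and the second start of Zfp423 (chr8:87959546-87959845, minus strand), with 2 matches each. The matches are in capitals below, and each window is read along the gene's own strand.
Plin1: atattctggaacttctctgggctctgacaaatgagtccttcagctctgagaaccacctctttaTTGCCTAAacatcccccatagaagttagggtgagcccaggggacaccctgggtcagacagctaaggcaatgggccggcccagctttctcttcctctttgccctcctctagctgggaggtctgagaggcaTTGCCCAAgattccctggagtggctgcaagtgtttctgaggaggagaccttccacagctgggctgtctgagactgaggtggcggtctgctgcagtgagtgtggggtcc
Pparg: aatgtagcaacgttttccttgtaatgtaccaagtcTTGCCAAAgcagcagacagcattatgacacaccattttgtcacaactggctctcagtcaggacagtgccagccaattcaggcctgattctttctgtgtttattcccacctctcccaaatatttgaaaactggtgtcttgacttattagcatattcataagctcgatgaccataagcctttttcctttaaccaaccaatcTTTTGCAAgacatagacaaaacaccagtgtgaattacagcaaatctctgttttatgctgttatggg
Zfp423: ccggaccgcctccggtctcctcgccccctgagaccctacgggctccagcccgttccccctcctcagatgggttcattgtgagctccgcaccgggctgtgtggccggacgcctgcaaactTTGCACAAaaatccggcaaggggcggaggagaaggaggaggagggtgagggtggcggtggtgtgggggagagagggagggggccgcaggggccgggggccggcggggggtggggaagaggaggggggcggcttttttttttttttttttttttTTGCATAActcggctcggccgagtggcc

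In Plin1 the matches TTGCCTAA and TTGCCCAA began at positions -187 and -58 from the start. In Pparg, TTGCCAAA and TTTTGCAA began at -215 and -16. In Zfp423, TTGCACAA and TTGCATAA began at -131 and 22, the latter after the start. The windows of Cebpa, Cebpb, Adipoq and Cd36 and the other starts held no match. The PPAR response motif AGGNCANAGGNCA, searched in the same way, occurs in 0.381% of all windows and in none of the 10. A match describes the letters of the window and is not a measured site.

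In tumour CM the cell types differed in the same 8 genes. Of the 10 genes, 8 were higher in CD26+ NFs and 0 lower (edgeR, FDR under 0.05), where 29.3% of all tested genes were higher and 29.3% lower, and the median log2 fold change was 1.49 against -0.00 over all tested genes. Without Adipoq and Plin1 it was 6 of 8 with a median of 1.15, and of these Zfp423 and Lpl, 2 of 8, passed the log2 limit of 2. In 7 of the 10 the libraries of the cell types did not overlap (31.7% of all tested genes), and 4, Zfp423, Lpl, Adipoq and Plin1, passed the log2 limit of 2 (4.16% of all). Without replicate 18 the count was 8, and without replicate 13 it was 7, because Adipoq then failed the filter on low counts. With the epithelial covariate, Fabp4 and Adipoq did not pass in tumour CM, at edgeR FDRs of 0.180 and 0.0987. Their log2 fold changes were 0.80 and 5.39 with the covariate and 0.95 and 4.37 without it.

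Lpl ran from 198 over a median of 236 to 492 CPM in CD26- CM libraries and from 1165 over 1275 to 1701 CPM in CD26+ CM libraries. Every CD26+ library exceeded every CD26- library, with a log2 fold change of 2.17 ± 0.20 (SE) and an edgeR FDR of 7.61e-08. Cebpa ran from 6.76 over 9.29 to 12.6 CPM in CD26- CM and from 22.2 over 29.4 to 37.5 CPM in CD26+ CM libraries, a difference of 1.70 ± 0.14 (log2, SE). Zfp423 ran from 1.04 over 1.30 to 2.30 CPM and from 3.64 over 5.37 to 10.7 CPM in the same groups. Its difference was 2.01 ± 0.24 (log2, SE) with an edgeR FDR of 1.41e-06, and 1.77 without replicate 18.

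Cebpd ran from 10.4 over 12.1 to 15.4 CPM in CD26- CM and from 22.3 over 30.5 to 40.6 CPM in CD26+ CM libraries. It did not overlap between the cell types, and its difference was 1.28 ± 0.14 (log2, SE) with an edgeR FDR of 7.21e-07. Plin1 had 0 to 13 counts in CD26- CM, the 13 in replicate 9, and 32 to 178 counts in CD26+ CM libraries, a log2 fold change of 4.32 ± 0.61 (SE). Over the alternative fits that value ran from 3.87, without replicate 13, to 5.35. Adipoq had 34 counts over the 6 CD26+ CM libraries, 25 of them in replicate 13, and 1 count over the 6 CD26- CM libraries. Its groups overlapped at 0, the ratio was 36.1 with an exact 95% interval of 6.05 to 1466, and the edgeR FDR was 0.0178. Fabp4 and Cebpb differed by 0.95 ± 0.20 and 0.72 ± 0.09 (log2, SE).

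Pparg overlapped again, with 9.38 to 16.2 CPM in CD26- CM and 11.3 to 16.1 CPM in CD26+ CM libraries and a log2 fold change of -0.03 ± 0.12 (SE). Cd36 differed by 1.01 ± 0.50 (log2, SE) with an edgeR FDR of 0.0921. With the CM line as a replicate block, Cd36 was called at 0.88 with an edgeR FDR of 0.0298. Without replicate 16 it was called at 1.22 (edgeR FDR 0.0310), and without replicate 13 its difference was 0.30.

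**Figure D2:**
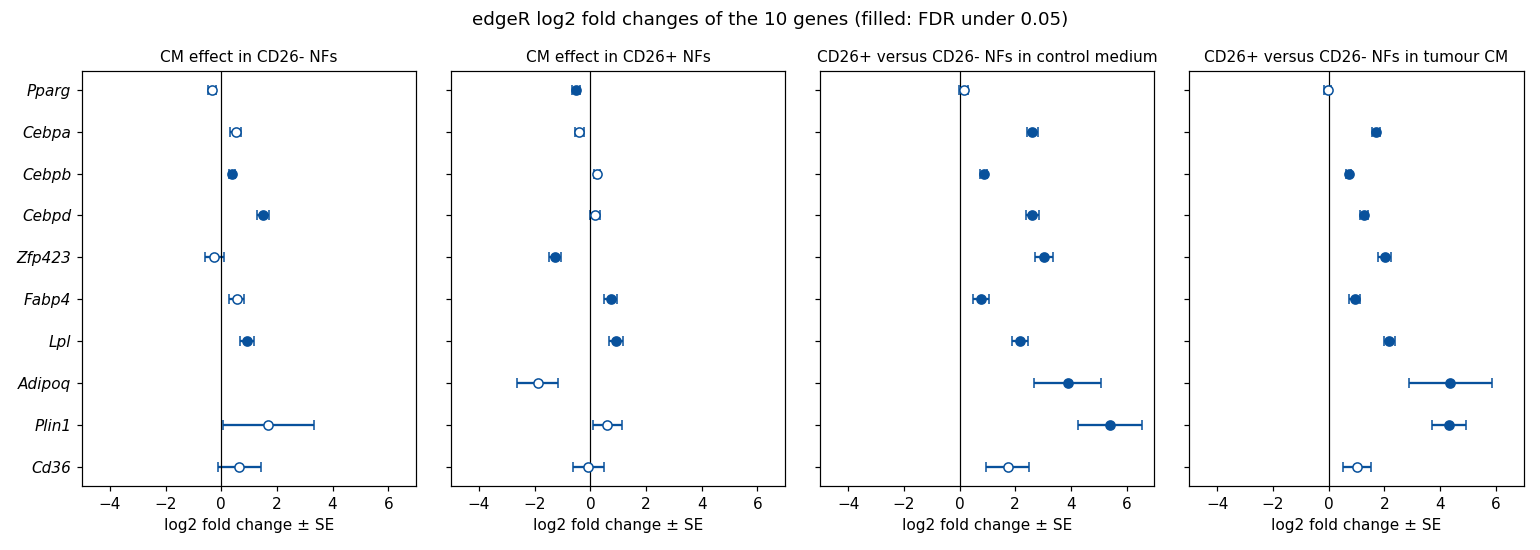
Log2 fold change ± SE from edgeR (horizontal axes) of the 10 genes (vertical axis) in 4 comparisons, filled where the FDR was under 0.05. In both cell type comparisons every gene but Pparg lies right of 0, and Pparg is near 0 with 0.15 and -0.03. No fold is drawn for Adipoq in the CM effect of CD26- NFs, where it was at or under 3 counts in every library.

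The next question was what tumour CM changed in each cell type. In CD26- NFs, 3 of the 10 genes rose and 0 fell (edgeR, FDR under 0.05), where 7.88% of all tested genes rose and 7.28% fell. They were Cebpd, Lpl and Cebpb, and 0 of the 10 passed the log2 limit of 2 (0.904% of all). The median log2 fold change was 0.54, or 0.55 without Adipoq, against 0.01 over all tested genes.

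Cebpd rose in CD26- NFs, from 3.38 to 5.71 CPM in the 3 control libraries to 10.4 to 15.4 CPM in the 6 CM libraries. The groups did not overlap, with a log2 fold change of 1.51 ± 0.22 (SE), a 2.84-fold higher level, and an edgeR FDR of 0.000362. Lpl rose by 0.92 ± 0.25 (log2, SE) with an edgeR FDR of 0.0184. Its 2 highest libraries, those given CM of 18-MCB-12 (420 CPM) and 13-MCB-138 (492 CPM), lay above the other 4 at 198 to 245 CPM. Cebpb had means of 25.1 ± 2.37 and 32.8 ± 4.34 CPM in control and CM libraries (SD; n = 3 and n = 6), a rise of 0.39 ± 0.11 (log2, SE). Without CD26- control replicate 3 only Cebpd passed, while Lpl was at 0.86 and Cebpb at 0.31. Cebpd alone passed with the epithelial covariate, where Lpl was at 0.81 and Cebpb at 0.34. Cebpb also missed the threshold without CD26- control replicate 2, at 0.40, and Lpl without replicate 1, at 0.95, and in a fit of the CD26- libraries alone, at 0.93 (edgeR FDR 0.0524).

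Cebpa was at 9.47 ± 2.05 CPM (SD, n = 6) in CM against 6.57 ± 1.11 (SD, n = 3) in control medium and did not pass at an edgeR FDR of 0.0803, other than without replicate 7 (0.60, edgeR FDR 0.0313). Fabp4 reached 16.9 to 27.7 CPM in CM, above all 3 control libraries, with an edgeR FDR of 0.159. It was called in the fit of the CD26- libraries alone (edgeR FDR 0.0382) and without replicate 13 (0.0446). In 4 of the 10 genes the CM and control libraries of CD26- NFs did not overlap, against 20.3% of all tested genes. Pparg, Zfp423 and Cd36 overlapped between the media, with log2 fold changes of -0.33 ± 0.15, -0.26 ± 0.34 and 0.65 ± 0.76 (SE). Plin1 had 3 counts over the control and 22 over the CM libraries, of which 13 were in replicate 9 alone. That gave a ratio of 3.46 with an exact 95% interval of 1.04 to 18.1, and the edgeR FDR was 0.527. Adipoq had 1 count over the 6 CM libraries, and no fold is given.

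In CD26+ NFs, 2 of the 10 genes rose and 2 fell in tumour CM (edgeR, FDR under 0.05), where 15.2% of all tested genes rose and 13.4% fell. Fabp4 and Lpl rose, and the regulators Pparg and Zfp423 fell. In 5 of the 10, these 4 and Cebpa, the media did not overlap (25.3% of all tested genes), and 0 passed the log2 limit of 2 (2.01% of all). The median log2 fold change was 0.05 against -0.00 over all tested genes. With the epithelial covariate the same 4 genes were called.

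Zfp423 fell from 12.5, 15.6 and 15.2 CPM in control medium to a range of 3.64 over 5.37 to 10.7 CPM in CM. All 6 CM libraries lay below all 3 control libraries, with a log2 fold change of -1.27 ± 0.22 (SE), a level 0.413 times that of the control, and an edgeR FDR of 0.000465. Without replicate 18, the highest CM library, the log2 fold change was -1.52. Pparg fell from 16.9 to 19.9 CPM to a range of 11.3 over 12.8 to 16.1 CPM, again without overlap. Its log2 fold change was -0.51 ± 0.15 (SE) with an edgeR FDR of 0.0147, and it did not pass without CD26+ control replicate 10 or 11, at -0.48 in each fit.

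Lpl rose to 1344 ± 204 CPM in CM against 713 ± 32.2 CPM in control medium (SD; n = 6 and n = 3), a 1.89-fold higher level with an edgeR FDR of 0.00941. The log2 fold change of 0.92 ± 0.24 (SE) stood beside 0.92 ± 0.25 in CD26- NFs. Fabp4 was at 42.2 ± 16.1 CPM in CM and 25.6 ± 5.88 CPM in control medium (SD; n = 6 and n = 3), a rise of 0.72 ± 0.24 (log2, SE) with an edgeR FDR of 0.0334. Its highest CM library was replicate 13 with 73.4 CPM, and without it the log2 fold change was 0.48 at an edgeR FDR of 0.0503. It also did not pass in a fit of the CD26+ libraries alone, at 0.71 (edgeR FDR 0.0920), and without CD26+ control replicate 11 or 12, at 0.77 and 0.54, and without replicate 11 the count of called genes was 2.

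Cebpa was at 22.2 to 37.5 CPM in CM, below all 3 control libraries at 38.2 to 41.8 CPM, with an edgeR FDR of 0.0632. It passed without replicate 7, 9, 13 or 18 and with upper-quartile scaling. Cebpb and Cebpd were at 53.9 ± 5.49 and 30.9 ± 6.69 CPM (SD, n = 6 each) in CM, with edgeR FDRs of 0.116 and 0.488. Adipoq had 30, 29 and 9 counts in control medium and 25, 0, 1, 0, 0 and 8 counts in CM. It was at or under 1 count in 4 of the 6 CM libraries, and its log2 fold change of -1.90 ± 0.75 (SE) had an edgeR FDR of 0.0663. It was called without CD26+ control replicate 12 (-2.30, edgeR FDR 0.0492), and without replicate 13 it failed the filter on low counts. Plin1 and Cd36 spread widely in CM, from 2.54 to 13.5 and from 0.317 to 4.55 CPM, and did not pass at edgeR FDRs of 0.414 and 0.938.

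The difference between the CM effects of the cell types was called for 2 of the 10 genes, both lower in CD26+ NFs (edgeR, FDR under 0.05), where 3.01% of all tested genes were lower and 4.53% higher. At the log2 limit of 2 it was 0 of the 10 and 0.392% of all. The called genes were Cebpd, with -1.33 ± 0.27 (log2, SE) and an edgeR FDR of 0.00849, and Cebpa, with -0.92 ± 0.25 and an edgeR FDR of 0.0330. Cebpd rose in CD26- NFs and had a log2 fold change of 0.17 ± 0.17 (SE) in CD26+ NFs. Cebpa had log2 fold changes of 0.52 ± 0.20 in CD26- and -0.40 ± 0.16 in CD26+ NFs, of which neither passed alone. In tumour CM the level of Cebpa in CD26+ NFs was still 3.24-fold that in CD26- NFs, against 6.14-fold in control medium.

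Only Cebpd was called without any 1 of replicates 1, 3, 4, 10, 11 and 12, and with the epithelial covariate. The Cebpa difference was -0.97 to -0.86 in those 6 fits and -0.90 with the covariate. Zfp423 had a difference of -1.02 ± 0.41 (log2, SE) with an edgeR FDR of 0.127. With the CM line as a replicate block it was called at -1.03 with an edgeR FDR of 0.00506, which made 3 genes, and without replicate 18 it was called at -1.27 with an edgeR FDR of 0.00605. For Lpl the difference was -0.01 ± 0.33 and for Pparg -0.18 ± 0.21 (log2, SE).

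Zfp423 and Plin1 differed among the CM of the 6 lines, when the line was tested over the 12 CM libraries with cell type in the fit. Each line was repeated only by its pair of libraries, 1 of each cell type. Of 9 genes tested, 2 were called (edgeR, FDR under 0.05), where 6.56% of all genes tested for the lines were called. That background moved with single libraries, from 876 genes to between 360 (without replicate 17) and 2060 (without replicate 9). The called genes were Zfp423 at an FDR of 0.0222 and Plin1 at 0.0420, and Adipoq did not pass the filter among CM libraries. Neither was called without any 1 of replicates 7, 13, 14, 15, 16 and 17, and only Zfp423 was called without replicate 5, 6 or 8. Without replicate 4 Plin1 was lost, at an FDR of 0.0506, and Fabp4 was called, at 0.0204. With the epithelial covariate Zfp423 was lost, at an FDR of 0.0530, and Plin1 was at 0.0490. Zfp423 alone was lost without replicate 18, at an FDR of 0.168, where Lpl was called in its place at 0.0242.

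**Figure D3:**
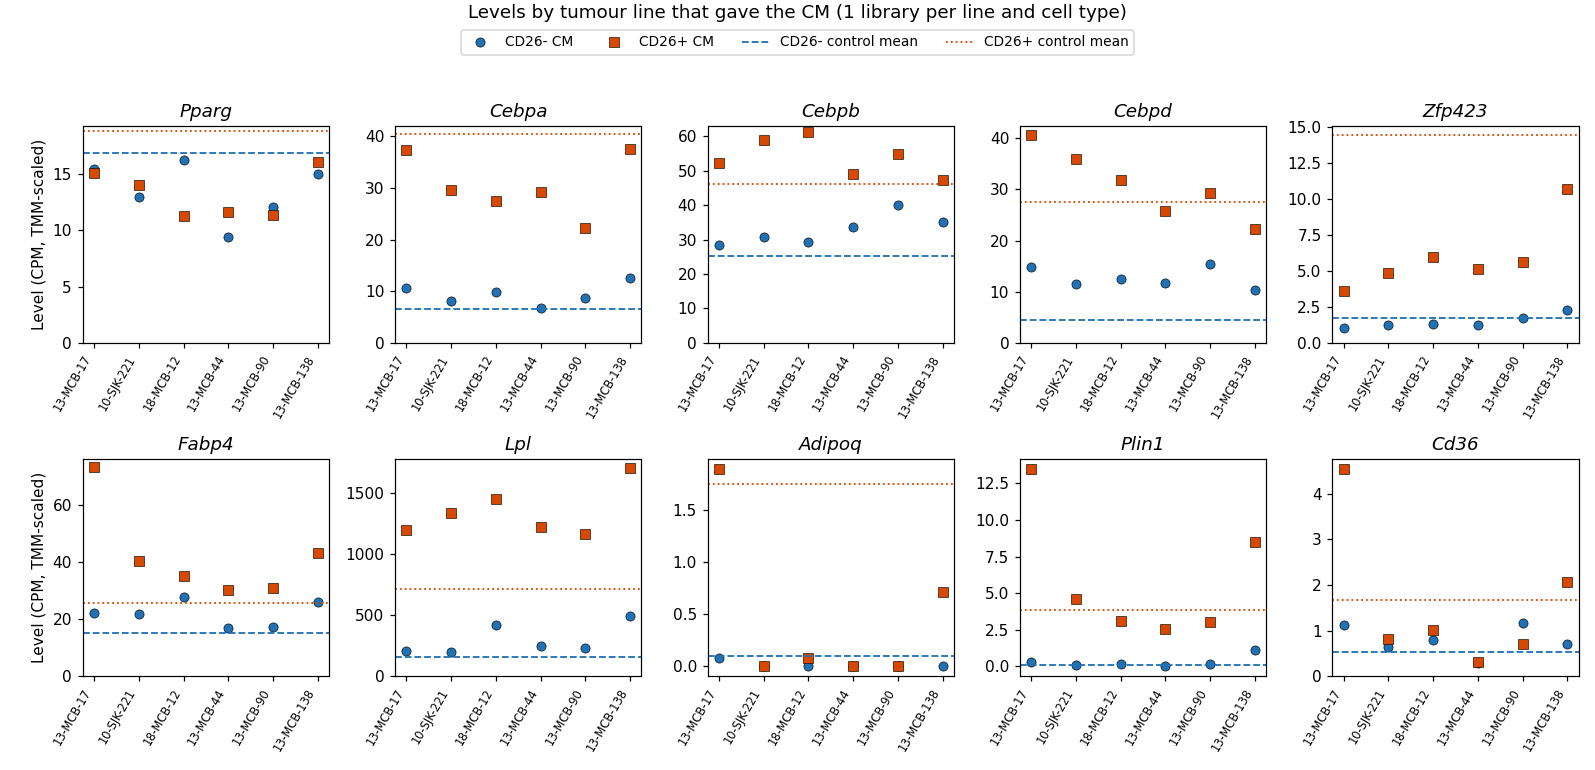
Level of each gene (vertical axis, CPM on TMM-scaled library sizes) by the tumour line that gave the CM (horizontal axis), with circles for CD26- and squares for CD26+ NFs, 1 library each, and lines at the means of 3 control libraries. The squares of 13-MCB-17 and 13-MCB-138 are the 2 highest for Fabp4, Adipoq, Plin1 and Cd36.

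With CM of 13-MCB-138, Zfp423 was highest in both cell types, at 2.30 CPM in CD26- and 10.7 CPM in CD26+ NFs, and with CM of 13-MCB-17 it was lowest in both, at 1.04 and 3.64 CPM. In CD26+ NFs these were 0.744 and 0.252 times the control mean. Plin1 had 178 counts (13.5 CPM) with CM of 13-MCB-17 and 95 counts (8.49 CPM) with CM of 13-MCB-138 in CD26+ NFs, above the other 4 lines at 2.54 to 4.58 CPM. In CD26- NFs its highest value was with CM of 13-MCB-138, at 1.15 CPM from 13 counts.

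The same 2 libraries held the top of most of the 10 genes in CD26+ NFs. Replicate 13 (CM of 13-MCB-17) was highest for 5 of the 10 genes, Cebpd, Fabp4, Adipoq, Plin1 and Cd36, and replicate 18 (CM of 13-MCB-138) for 4, Pparg, Cebpa, Zfp423 and Lpl. The share of all tested genes that were highest in each library was not counted, and replicate 18 stood apart in its counts as a whole. The ranking is therefore not read as a trait of the 10 genes. In replicates 13 and 18 the sums of mature adipocyte markers were 17.2 and 10.9 CPM, of which Plin1 alone made 13.5 and 8.49 CPM. The other 4 CD26+ CM libraries had sums of 3.65 to 5.25 CPM. Of the 34 Adipoq counts of the CD26+ CM group, 25 were in replicate 13 and 8 in replicate 18. Cidec had 4 counts in replicate 13 and 0 in the other CD26+ CM libraries.

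CD26- NFs given the same CM ranked differently for some of these genes. CM of 13-MCB-138 gave the highest value of 4 genes, CM of 13-MCB-90 of 3 and CM of 18-MCB-12 of 2, and Adipoq, with 1 count over the 6 libraries, was not ranked. Here too the share over all tested genes was not counted. Fabp4 was highest with CM of 18-MCB-12, at 27.7 CPM. Within a line, CD26+ exceeded CD26- NFs in 6 of 6 lines for Cebpa, Cebpb, Cebpd, Zfp423, Fabp4, Lpl and Plin1. For these genes that follows from the lack of overlap between the cell types in tumour CM, found in 31.7% of all tested genes, and adds nothing to it. The ratio ran from 3.46 to 6.72 for Lpl, from 2.53 to 4.33 for Cebpa and from 1.27 to 3.32 for Fabp4. For Cd36 it was 5 lines and for Pparg 3 lines. Adipoq had 25 against 1, 1 against 0 and 8 against 0 counts with CM of 13-MCB-17, 18-MCB-12 and 13-MCB-138, and 0 counts in both cell types with CM of the other 3 lines.

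With group means removed, Pparg varied together with some of the genes and not with others. Over the 18 libraries the residual log2 CPM of Pparg had a Pearson r of 0.75 with Cebpa, 0.73 with Fabp4, 0.40 with Lpl, 0.15 with Zfp423, 0.02 with Cebpd and -0.40 with Cebpb. Adipoq, Plin1 and Cd36 are left out, because their CD26- libraries held few counts. These are descriptions over points that share libraries and their scaling. Without removing the groups, the genes most like Pparg among 11124 genes were Peg10 with an r of 0.80, Loxl4 with 0.80, Rpl10 with 0.78, Rsrc1 with 0.77 and Rcn2 with 0.77 over the 18 libraries.

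The wider pathway was read from 6 lists of further genes. Of 20 tested further adipogenic regulators, 10 were higher and 2 lower in CD26+ cells when both had control medium (25.0% and 25.4% of all tested genes), with a median log2 fold change of 0.39. With the epithelial covariate 4 of the 20 were called in control medium instead of 12, and 6 instead of 14 in tumour CM. In tumour CM without it 12 were higher and 2 lower, against 29.3% and 29.3% of all tested genes. Rxra, the partner receptor of Pparg, averaged 91.8 ± 2.79 CPM in CD26- and 177 ± 12.4 CPM in CD26+ control libraries (SD; 3 libraries each), a difference of 0.95 ± 0.08 (log2, SE). Ebf1, an early factor of the lineage, was higher by 1.06 ± 0.11 (log2, SE). Klf4 and Klf5, which act early in the cascade and are also expressed in epithelium, had log2 fold changes of -1.12 ± 0.16 and -1.02 ± 0.21 (SE).

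Tumour CM raised 2 and lowered 2 of these 20 regulators in CD26- NFs and raised 7 and lowered 3 in CD26+ NFs, where the background shares were 7.88% and 7.28%, and 15.2% and 13.4%. Stat5a, a transcription factor of cytokine and growth hormone signals that favours fat cell formation, rose in both cell types. It averaged 12.7 ± 0.773 CPM in control and 27.0 ± 3.51 CPM in CM libraries of CD26- NFs, and 25.9 ± 0.943 and 64.9 ± 11.0 CPM in those of CD26+ NFs (SD; n = 3 for control, n = 6 for CM). The log2 fold changes were 1.09 ± 0.14 and 1.32 ± 0.13 (SE). Zfp467, a zinc finger cofactor that promotes the fat lineage, rose by 1.34 ± 0.22 in CD26- and 0.74 ± 0.20 in CD26+ NFs (log2, SE). Rxra and Srebf1, a regulator of lipid synthesis, fell in CD26+ NFs, with log2 fold changes of -0.38 ± 0.07 and -0.23 ± 0.06 (SE).

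Of 18 tested inhibitors of adipogenesis, 6 were higher in CD26+ and 6 in CD26- control libraries, where the shares over all tested genes were again 25.0% and 25.4%, and the epithelial covariate gave 4 calls in place of 12. Dlk1, the preadipocyte protein Pref-1, averaged 4.93 ± 1.52 CPM in the CD26- and 31.9 ± 2.99 CPM in the CD26+ controls (SD; 3 libraries each). With CM it averaged 11.4 ± 2.99 CPM in CD26+ NFs (SD, n = 6), a fall with a log2 fold change of -1.48 ± 0.19 (SE) and an edgeR FDR of 2.50e-05. It also fell in CD26- NFs, to 2.49 ± 0.636 CPM (SD, n = 6), with -0.95 ± 0.26 (log2, SE), and the difference in CM effect was not called (edgeR FDR 0.345). Zfp521, which antagonises Zfp423 and the early factor Ebf1, was higher in the CD26+ cells by 1.92 ± 0.16 with control medium and by 1.89 ± 0.12 with tumour CM (log2, SE). Wnt5b, a secreted Wnt ligand that this list counts although it is not settled as an inhibitor, was lower, with -2.16 ± 0.31 and -2.06 ± 0.23 (log2, SE) in the same comparisons. CM lowered 5 inhibitors and raised 1 in CD26- NFs, and it lowered 6 and raised 2 in CD26+ NFs. Over all tested genes CM lowered 7.28% and raised 7.88% in the former and lowered 13.4% and raised 15.2% in the latter. With the covariate the calls in CD26- NFs went from 6 to 2.

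**Figure D4:**
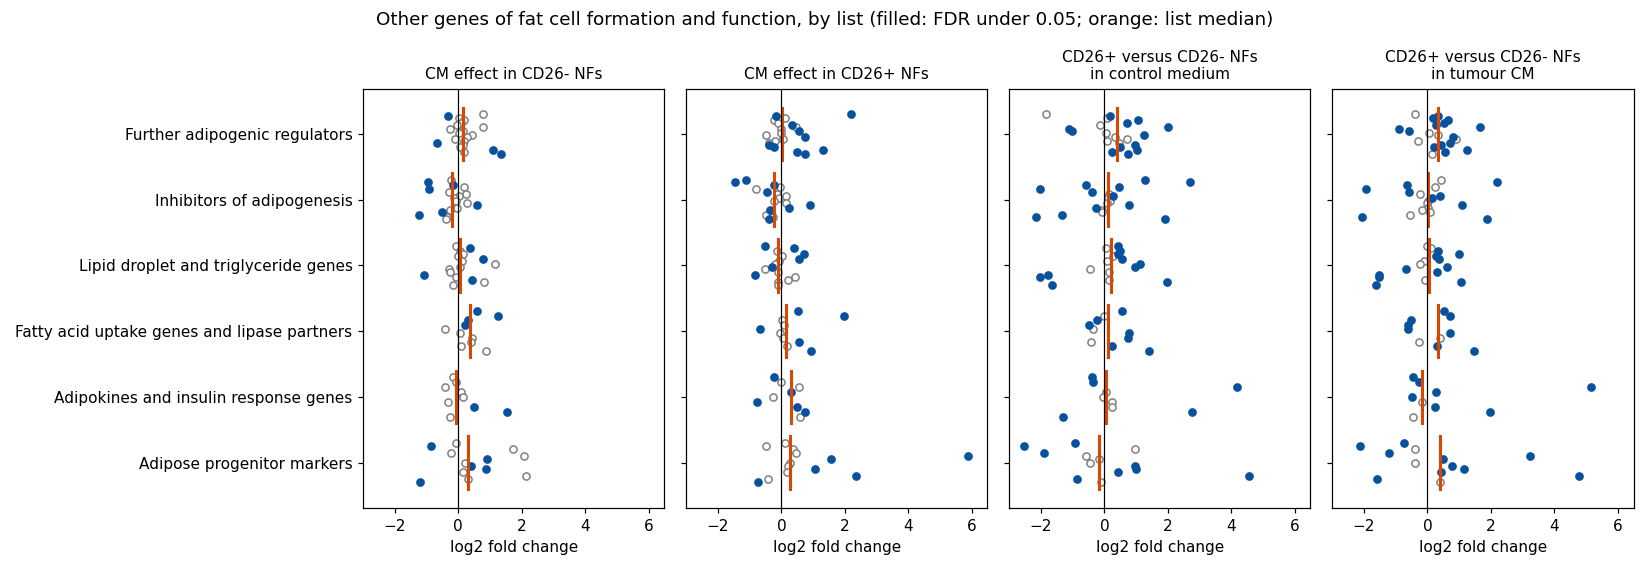
Log2 fold change from edgeR (horizontal axes) of each tested gene of 6 lists (rows) in 4 comparisons, filled where the FDR was under 0.05, with the list median in orange. Medians stay between -0.25 and 0.39, while single genes such as Agt and Pi16 exceed 4 in the cell type comparisons.

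Of 16 tested lipid droplet and triglyceride genes, 7 were higher in CD26+ and 3 in CD26- control libraries, against 25.0% and 25.4% of all tested genes, and the epithelial covariate gave 3 calls in place of 10. Plin2, the droplet coat found in most cell types, ran opposite to Plin1, with 354 ± 12.1 CPM in the CD26- and 86.1 ± 11.1 CPM in the CD26+ controls (SD; 3 libraries each). Its log2 fold change was -2.04 ± 0.19 (SE) with an edgeR FDR of 1.72e-07, and in tumour CM it was -1.53 ± 0.13. Pnpla2, the first lipase of stored triglyceride, was lower, with -1.65 ± 0.16 and -1.61 ± 0.12 (log2, SE) in control medium and tumour CM. Gpam, an enzyme of glycerolipid synthesis, was higher by 0.97 ± 0.11 and 0.63 ± 0.08 (log2, SE). Dgat2, which makes triglyceride, rose with CM by 0.76 ± 0.09 in CD26- and 0.55 ± 0.09 in CD26+ NFs, and Mgll, which splits monoglyceride, fell, with -1.07 ± 0.20 and -0.83 ± 0.21 (log2, SE).

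Of 10 tested fatty acid uptake genes and lipase partners, CM raised 4 and lowered 0 in CD26- NFs, and it raised 4 and lowered 1 in CD26+ NFs. The shares over all tested genes were 7.88% and 7.28%, and 15.2% and 13.4%, and the covariate gave 1 call in place of 4 in CD26- NFs. Angptl4, a secreted inhibitor of the Lpl protein, ranged from 35.5 to 39.9 CPM in CD26+ control and from 52.4 to 291 CPM in CD26+ CM libraries, without overlap. Its log2 fold change with CM was 1.97 ± 0.39 in CD26+ and 1.24 ± 0.38 in CD26- NFs (SE), both called. Lmf1, which is needed to mature the Lpl protein, was higher in CD26+ NFs by 0.79 ± 0.10 in control medium and 0.70 ± 0.07 in tumour CM (log2, SE). In the cell type comparisons 5 of this list were higher and 2 lower in CD26+ NFs with control medium, and 5 and 3 with tumour CM, where all tested genes gave 25.0% and 25.4%, and 29.3% and 29.3%. The covariate gave 2 calls in place of 7 in control medium. Got2, a mitochondrial aminotransferase that also binds fatty acids at the cell surface, was lower, with -0.49 ± 0.06 and -0.61 ± 0.04, and so was Fabp5, a fatty acid carrier, with -0.24 ± 0.09 and -0.52 ± 0.06 (log2, SE). Acsl1, which activates fatty acids, rose with CM by 0.57 ± 0.14 in CD26- and 0.53 ± 0.13 in CD26+ NFs (log2, SE).

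Of 9 tested adipokines and insulin response genes, 2 were higher in CD26+ and 3 in CD26- control libraries, against 25.0% and 25.4% of all tested genes, and the covariate gave 2 calls in place of 5. Agt, the angiotensinogen gene, ranged from 0.812 to 2.42 CPM in the CD26- and from 17.9 to 34.2 CPM in the CD26+ controls, with a log2 fold change of 4.17 ± 0.70 (SE). Rbp4, the carrier of retinol in blood, was higher in the CD26+ cells by 2.77 ± 0.22 in control medium. CM raised it by 1.54 ± 0.21 in CD26- and 0.73 ± 0.15 in CD26+ NFs (log2, SE). Lower in the CD26+ controls were Slc2a4, with -1.31 ± 0.37, and the adiponectin receptors Adipor1 and Adipor2, with -0.39 ± 0.07 and -0.35 ± 0.06 (log2, SE). In tumour CM 4 of the 9 were higher and 3 lower in CD26+ NFs, against 29.3% and 29.3% of all tested genes. CM raised 2 of the 9 and lowered 0 in CD26- NFs (7.88% and 7.28% of all), and it raised 3 and lowered 2 in CD26+ NFs (15.2% and 13.4%). The lowered genes were Irs2, an adaptor of the insulin receptor, with -0.76 ± 0.14, and Adipor1, with -0.22 ± 0.06 (log2, SE).

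Of 13 tested adipose progenitor markers, 4 were higher in CD26+ and 4 in CD26- control libraries, and with tumour CM the split was 6 and 4. Over all tested genes the shares were 25.0% and 25.4%, and 29.3% and 29.3%, and the covariate gave 4 calls in place of 8 in control medium and 5 in place of 10 in tumour CM. Cd24a, Cd55, Anxa3 and Sema3c were the 4 lower genes in the CD26+ controls, with -2.53 ± 0.32, -1.89 ± 0.29, -0.92 ± 0.08 and -0.86 ± 0.19, and in tumour CM they had -2.14 ± 0.23, -1.21 ± 0.20, -0.73 ± 0.06 and -1.58 ± 0.14 (log2, SE). Pi16, a marker of the same list that ran the other way, ranged from 6.38 to 9.19 CPM in CD26+ control and from 21.1 to 65.0 CPM in CD26+ CM libraries, and from 0.976 to 2.83 CPM in CD26- CM libraries. It rose with CM in CD26+ NFs by 2.37 ± 0.32 (log2, SE), and in CD26- NFs the value was 2.13 with an edgeR FDR of 0.0655. F3, a marker of an adipose stromal population, rose with CM by 0.90 ± 0.16 in CD26- and 1.56 ± 0.16 in CD26+ NFs (log2, SE). In all, CM raised 3 and lowered 2 of the 13 in CD26- NFs, against 7.88% and 7.28% of all tested genes, and raised 4 and lowered 1 in CD26+ NFs, against 15.2% and 13.4%. Wnt2, a secreted Wnt ligand, fell in both cell types, with -1.22 ± 0.23 and -0.72 ± 0.23, and Cd24a fell in CD26- NFs, with -0.88 ± 0.25 (log2, SE).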

How the data were processed

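Polyadenylated RNA was read with TruSeq stranded libraries. As deposited, the values are raw counts per gene, which the authors made with HISAT2 2.1.0 and HTSeq on GRCm38 per the submitters' processing notes. The annotation release is not given in the sources used here. The 10 genes and all lists were chosen with earlier results of these data known, so they are no independent test. Counts entered edgeR 4.0.16 (R 4.3.3) with TMM scaling, filterByExpr (14273 of 55486 genes) and a quasi-likelihood fit over 18 libraries in 4 groups, with Benjamini-Hochberg FDR over all tested genes. Group, n and CM line came from the labels. Differences among lines were tested over the 12 CM libraries with cell type in the fit (13344 genes). The study itself used DESeq2 with a log2 limit of 2. Ratios and intervals of low counts cover counting error only, and the floor of 3 counts was 0.203 to 0.290 CPM. From each further list, up to 2 genes per direction and comparison were picked by smallest p among called genes whose groups did not overlap, and some of these are described. Slc2a4 and Cd55, and values of the picked genes in further comparisons, were added after their values were seen. Same-line libraries deviated together in all 6 pairs (residual r 0.247 to 0.406), so the line serves as a pairing block in an alternative fit. Other alternatives were DESeq2, other scalings, no filter, a 2-group fit, an epithelial covariate, the log2 limit and leaving out each library. The main edgeR fits of groups and lines were tried on simulated data, and the other steps were not. Ddit3, which has 2 rows, was left out. No 2 replicates agreed within sampling noise (lowest chi-square per degree of freedom 3.03). One engineered allele of the tumour model is not reported here.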

Additional observations from a re-analysis of the deposited data

Results flagged for a closer look

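Among the 2 groups of 6 CM libraries, 3 values lay far from the rest of their group by Dixon's test, where chance flags about 1 in 20 groups. Zfp423 in CD26+ NFs was highest with CM of 13-MCB-138 (replicate 18), at 10.7 CPM against 3.64 to 6.00 CPM in the other 5 libraries. Fabp4 in CD26+ NFs was highest with CM of 13-MCB-17 (replicate 13), at 73.4 CPM against 30.2 to 43.3 CPM. Plin1 in CD26- NFs was highest with CM of 13-MCB-138 (replicate 9), at 1.15 CPM from 13 counts against at most 4 counts in the others. Adipoq in CD26- NFs was also marked, at 0.0801 CPM in replicate 4, but this is 1 count beside 0 in the other 5 libraries, where any count would be marked, and it cannot be told from 0.

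The CM effect differed between the cell types for Cebpa, by -0.92 on the log2 scale (CD26+ minus CD26- NFs), and for Cebpd, by -1.33, both past the FDR threshold of edgeR's test of the difference.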

How the results depend on the processing

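Counts of called genes among the 10, in the order CM in CD26-, CM in CD26+, cell types in control medium, cell types in tumour CM, difference in CM effect and lines, were 3, 4, 8, 8, 2 and 2. Over fits without 1 library they ran from 1 to 4, 2 to 5, 7 to 9, 7 to 9, 1 to 3 and 0 to 2. With the epithelial covariate they fell to 1 for CM in CD26-, 4 for control medium, 6 for tumour CM, 1 for the difference and 1 for the lines. Over all genes, with the covariate, CM in CD26- called 605 instead of 2164, control medium 1494 instead of 7186, tumour CM 2627 instead of 8360 and the lines 391 instead of 876. The further lists called 4, 4, 3, 2, 2 and 4 genes in control medium with it, against 12, 12, 10, 7, 5 and 8. The log2 limit of 2 left 0, 0 and 4 for CM in CD26-, CM in CD26+ and tumour CM, and 0 for the difference. For the lines, no filter on low counts gave 8 (2475 of all genes) and DESeq2 gave 4 (1387 of all genes). Without replicate 18 the difference was called in 2345 genes over all, against 1075, without CD26- control replicate 3 CM in CD26- was called in 825, and without CD26+ control replicate 11 the difference in 339. With the tumour line as a replicate block, paired over the 6 lines, the difference was called in 2516 of all genes and in Zfp423 (-1.03) and Cd36 was called in tumour CM (0.88), with no other call among the 10 changed.

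Directions turned only for values near 0 or at low counts. The Lpl difference was 0.00313 with no filter, 0.059 with the epithelial covariate, 0.070 with the replicate block and -0.10 to 0.19 without 1 library. Pparg was at -0.27 in control medium with the epithelial covariate and from -0.12 to 0.032 in tumour CM without 1 library. Fits without 1 library gave -0.072 to 0.30 for the Fabp4 difference, -0.62 to 1.68 for the Adipoq difference and -0.80 to 0.13 for Cd36 with CM in CD26+. The cause was not tested. Levels at or under 3 counts could not be told from 0.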
